A study of Mus musculus with 12 samples.

Results

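The comparison described here is the early transcript response to the lipopeptide MALP-2 in mouse peritoneal macrophages that lack both IRAK1 and IRAK2 (the double knockout). The double-knockout array at 2 h is set against a baseline averaged from 2 unstimulated arrays, wild type 0 h and IRAK2 KO 0 h. The question is which genes changed although both kinases were lost, and how far the same genes changed in wild type and IRAK2 KO at 2 h. These 3 arrays belong to a series of 12, with 1 array for each of 3 genotypes at 0, 2, 4 and 8 h of MALP-2 at 100 ng/ml. The genotypes are wild type, knockout of the gene for IRAK-2 (here IRAK2 KO) and knockout of both genes. The cells were thioglycollate-elicited macrophages from the peritoneal cavity. The baseline arrays differ from the double-knockout 2 h array in both genotype and MALP-2, which cannot be told apart in that difference. The wild-type and IRAK2 KO arrays at 2 h differ from it in genotype alone, as far as the labels say. Strain, age, knockout alleles and mice per array are not given in the sources used here. All genes on the array were members: 18194 genes, each read from 1 probeset (the group of probes that reports a transcript), of which 11810 were measured, meaning that the higher of the values compared reached a floor of 3.83, the median of all values. Values are log2 levels, so that a difference of 1 is a factor of 2.

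MALP-2 is a mycoplasma-type diacylated lipopeptide that is recognised by the receptor pair TLR2 and TLR6. The receptors recruit the adaptor MyD88 and the kinase IRAK4, which acts with the related kinases IRAK1 and IRAK2 on the ubiquitin ligase TRAF6, and from there the kinase TAK1 leads to NF-kB and to the MAP kinases. In macrophages this route switches on cytokines, chemokines and the feedback inhibitors that later switch it off.

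The double-knockout 0 h array was not used as the baseline. Its values correlated with those of the other 11 arrays at only 0.76 to 0.80, against at least 0.95 between any pair of the others, and its hybridisation spike-in probesets read 12.23 against 10.36 to 10.87. The substitute baseline has a cost: a double-knockout value set against it also holds any difference between the genotypes, or between the arrays, that was there before MALP-2. The double-knockout 2 h array also had weaker signal toward the 5' end of the array's control transcripts: the 5' minus 3' difference was -4.25 for beta-actin against -3.72 to -3.18 on the 8 wild-type and IRAK2 KO arrays, and -5.29 for Gapdh against -3.84 to -3.42. The mean level over 12 macrophage markers was 10.10 and 10.16 at 0 h in wild type and IRAK2 KO and 9.90 in the double knockout at 2 h, with Csf1r, the receptor for colony-stimulating factor 1, at 12.91 and 12.97 at 0 h and 13.13 in the double knockout at 2 h, and with lysozyme (Lyz2) at 13.20, 13.16 and 12.95. Limma called 5 of the 12 lower and 1 higher in the double knockout than at baseline: C1qa, a complement subunit, read 4.39 against 6.26 and 6.39 (change -1.93), and Fcgr1, a high-affinity IgG receptor, changed by -1.68 where wild type changed by -1.31. The 1 called higher was Cd14, which MALP-2 also raised in wild type and IRAK2 KO. It stood at 7.48 and 7.46 at 0 h and at 10.15 in the double knockout at 2 h, which lifts the double-knockout mean. The median change over the 12 was -0.22. Among markers of other cells, the fibroblast collagen Col1a1 read 10.71, 10.76 and 10.61 and the neutrophil calprotectin subunit S100a8 10.48, 10.23 and 9.41 on the same arrays. The mean level over the 11 neutrophil markers on the table was 4.94 and 4.87 at 0 h and 4.67 in the double knockout, that over 10 stromal markers 6.31, 6.16 and 6.26, and that over 7 B-cell markers 4.41, 3.96 and 4.04. Mean levels of T and NK cell, eosinophil and mast cell, dendritic cell and erythroid markers lay near the floor in the double knockout, at 3.72, 4.18, 4.04 and 3.45, against 3.52, 4.01, 3.81 and 3.31 in wild type at 0 h. The part of other cells in the results below was not tested.

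Irak1 and Irak2 themselves were read first. Irak2 stood at 6.21 and 6.69 in wild type at 0 and 2 h, at 5.63 and 5.51 in IRAK2 KO, and at 5.19, 4.61 and 5.09 in the double knockout at 2, 4 and 8 h. The 4 Irak1 probesets changed by -0.29, -0.57, -1.27 and -0.39 in the double knockout at 2 h. Where these probesets lie relative to the deleted parts of the genes is not given, so the readings check the labels only loosely.

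The promoters below are examples picked from the named genes and are shown before the values. Cxcl2, Gpr84 and Cxcl3 rose in all 3 genotypes and carry the letters GGGNNTTTC, part of the usual NF-kB binding sequence, in this window. Acod1 rose as far in the double knockout as in wild type, and Lcn2 did not rise in the double knockout. Neither window holds those letters. Nor do the windows of Clec4e, Nfkbie, Olr1, Tnf, Marcksl1, Rasgrp1 and Spata13, which also rose in all 3 genotypes. Cxcr4 and Cd300lb, whose fall was lost in the double knockout, hold them on the other strand. Each promoter shown is the 250 bases before the gene's start, from RefSeq on GRCm38.p6, 5' to 3' on the gene's strand. GGGNNTTTC and the TATA-box letters TATAAA are in capitals. They lie at chr5:90903649-90903898, plus strand (Cxcl2), chr15:103310439-103310688, minus strand (Gpr84), chr5:90785851-90786100, plus strand (Cxcl3), chr14:103046762-103047011, plus strand (Acod1) and chr2:32387740-32387989, minus strand (Lcn2).
Cxcl2: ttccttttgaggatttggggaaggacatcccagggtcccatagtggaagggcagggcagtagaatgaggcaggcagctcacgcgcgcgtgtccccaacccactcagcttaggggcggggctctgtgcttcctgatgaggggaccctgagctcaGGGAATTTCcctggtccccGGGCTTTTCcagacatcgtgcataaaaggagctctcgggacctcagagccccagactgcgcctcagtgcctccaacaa
Gpr84: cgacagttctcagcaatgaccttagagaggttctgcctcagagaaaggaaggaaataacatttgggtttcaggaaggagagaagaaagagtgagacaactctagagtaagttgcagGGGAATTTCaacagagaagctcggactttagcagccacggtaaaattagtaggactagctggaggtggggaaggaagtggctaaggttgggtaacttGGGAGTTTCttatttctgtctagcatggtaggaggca
Cxcl3: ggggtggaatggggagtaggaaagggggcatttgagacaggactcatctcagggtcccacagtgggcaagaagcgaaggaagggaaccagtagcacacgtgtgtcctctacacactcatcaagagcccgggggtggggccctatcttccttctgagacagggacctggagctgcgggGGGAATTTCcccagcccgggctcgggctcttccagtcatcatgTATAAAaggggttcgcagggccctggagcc
Acod1: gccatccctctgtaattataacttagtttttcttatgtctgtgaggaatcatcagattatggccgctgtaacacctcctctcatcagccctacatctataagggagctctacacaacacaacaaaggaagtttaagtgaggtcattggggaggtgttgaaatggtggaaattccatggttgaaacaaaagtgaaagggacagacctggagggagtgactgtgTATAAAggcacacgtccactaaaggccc
Lcn2: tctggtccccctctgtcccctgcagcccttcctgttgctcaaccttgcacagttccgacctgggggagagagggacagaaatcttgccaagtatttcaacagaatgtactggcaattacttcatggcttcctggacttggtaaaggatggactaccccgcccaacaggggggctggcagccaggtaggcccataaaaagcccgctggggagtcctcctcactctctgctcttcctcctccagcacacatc
In Cxcl2 the capitals begin 97 and 78 bases before the start, in Gpr84 134 and 37 bases before it, and in Cxcl3 the NF-kB letters begin 73 and the TATA letters 30 bases before it. The TATA letters of Acod1 begin 28 bases before its start.

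At 2 h the double knockout differed from unstimulated controls at many genes. Of 11810 measured genes, 498 (4.22%) were at least 2-fold above the substitute baseline in the double knockout at 2 h and 707 (5.99%) at least 2-fold below it. Wild type had 612 such rises among 11315 measured genes (5.41%) and 868 falls (7.67%). IRAK2 KO had 532 rises among 11436 (4.65%) and 615 falls (5.38%). Read as the mean of all probesets of a gene, the double knockout had 294 rises in place of 498. The median change of all measured genes was -0.03 in the double knockout, -0.15 in wild type and -0.10 in IRAK2 KO.

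With 1 array per group, error was taken from a limma fit in which the spread is how far the IRAK2 KO minus wild type difference varied over the 4 times (3 residual degrees of freedom, shared across genes). That spread does not cover differences between mice, nor a shift of the whole double-knockout array, and the lone array is assumed to vary like the others. The p-values below therefore say less than the many calls appear to. An effect of IRAK2 loss that changes with time also counts as spread. The standard error was 0.99 for Il1b and 0.81 for Ccl4, against 0.12 for Olr1. For genes with such a wide spread, a change or difference that was not called says little. Of 10858 genes tested, limma called 1611 (14.8%) higher and 2450 (22.6%) lower in the double knockout at 2 h than the baseline at an adjusted p of 0.05. Among the genes past 2-fold, 477 of 484 tested rises and 703 of 705 tested falls were also called. The limma difference from the baseline is the same difference that the 2-fold rule used, so that overlap is no independent test. The same holds for p-values against the baseline of genes named for the size of their rise or fall. Below, "rose" and "fell" are used of wild type and IRAK2 KO genes past 2-fold and of double-knockout genes that limma called.

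Because the double-knockout baseline contains the controls of the other comparisons, overlap was also counted with no array in common. Wild type 2 h against wild type 0 h gave 612 rises and double knockout 2 h against IRAK2 KO 0 h gave 517, of which 283 were shared (46.2% of the first list and 54.7% of the second). For falls the lists held 868 and 687 genes and shared 224 (25.8% and 32.6%). The other pairing, IRAK2 KO 2 h against IRAK2 KO 0 h beside double knockout 2 h against wild type 0 h, gave 532 and 525 rises with 270 shared (50.8% and 51.4%), and 615 and 760 falls with 218 shared (35.4% and 28.7%). Among wild-type rises the median change was 1.59 in wild type and 0.93 in the double knockout.

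**Figure D1:**
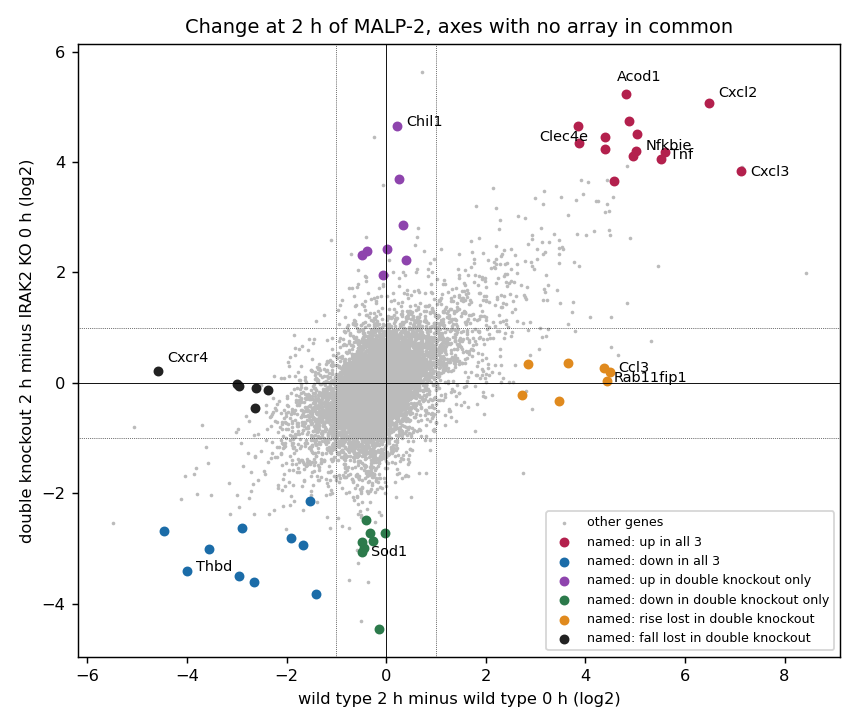
Each point is 1 measured gene: the x axis is wild type 2 h minus wild type 0 h and the y axis double knockout 2 h minus IRAK2 KO 0 h, both in log2 units, so that no array enters both axes; dotted lines mark 2-fold and colours mark the genes named in the text. Acod1 and Clec4e sit near equal change on both axes, Cxcl3 well to the right of it, Ccl3 and Rab11fip1 along the zero line of the double knockout, and Chil1 along the zero line of wild type.

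Genes at least 2-fold up in all 3 genotypes numbered 260. Their median change was 2.21 in wild type, 2.09 in IRAK2 KO and 1.71 in the double knockout. Against the wild-type and IRAK2 KO mean at 2 h, which is the same as the difference in change because the baseline is common, limma called 89 of the 260 lower and 13 higher, and did not call 158; over all genes tested the shares called were 15.8% lower (1712) and 18.8% higher (2043). That balance turned to 1852 lower and 1825 higher with the arrays centred on their medians, and to 1888 lower and 1305 higher with the mean of all probesets. In size, 144 lay within 0.5 log2 of the 2 h mean, 50 lay more than 1 log2 below it and 0 more than 1 log2 above it. With time the groups parted: at 4 h, 211 of the 260 were still 2-fold up in wild type, 190 in IRAK2 KO and 181 in the double knockout, and at 8 h the counts were 196, 155 and 108.

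Of the 14 largest double-knockout rises among them, several ended near the level of the stimulated controls. Acod1, which makes the antimicrobial metabolite itaconate, stood at 7.35 and 6.98 at 0 h in wild type and IRAK2 KO and at 12.17 and 12.21 at 2 h, and at 12.21 in the double knockout at 2 h. Its change was 28.3-fold in wild type, 37.6-fold in IRAK2 KO and 33.1-fold in the double knockout (limma adjusted p = 3.76e-06), and the difference from the 2 h mean was 0.02 log2, with a 95% interval from -0.35 to 0.39. It stayed up afterwards, at 12.02 and 11.73 in the double knockout at 4 and 8 h. All 3 genotypes thus read nearly the same at 2 h, far from both 0 h values. At 4 and 8 h wild type read 12.25 and 12.26 and IRAK2 KO 12.26 and 12.27, so the controls hardly moved after 2 h. Whether this probeset was near the upper limit of its signal was not tested. The highest value of any gene over the 11 arrays was 13.65.

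Clec4e, the receptor Mincle for mycobacterial glycolipid, went from 7.68 to 12.07 in wild type and from 7.97 to 12.10 in IRAK2 KO, and read 12.21, 12.54 and 12.17 in the double knockout at 2, 4 and 8 h. That is a rise of 20.9-fold, with 2 probesets at 4.38 and 4.78 log2. Olr1, a scavenger receptor for oxidised lipoprotein, went from 7.15 to 11.54 and from 6.94 to 11.31, and read 11.39 in the double knockout, a difference of -0.03 from the 2 h mean (interval -0.31 to 0.25). Clec4e thus stood just above the stimulated controls and Olr1 between them. Nfkbie, which encodes the inhibitor IkB-epsilon, went from 5.69 to 10.72 and from 6.07 to 10.72 and read 10.58 in the double knockout, a 26.0-fold rise (adjusted p = 5.79e-06 by limma). Spata13, a guanine exchange factor for small GTPases, read 10.65 against 10.70 and 10.62, and its difference was -0.02 (interval -0.45 to 0.41); its other probesets changed by 2.50 and 0.21. Limma did not call these 4 genes different from the 2 h mean, with adjusted p between 0.537 and 0.953.

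Marcksl1, a regulator of the actin cortex, and Rasgrp1, an exchange factor for Ras, changed by 4.47 and 4.41 in the double knockout. Marcksl1 read 11.89 against 12.02 and 12.39 in the stimulated controls, and Rasgrp1 8.39 against 9.19 and 8.35; neither was called different (adjusted p = 0.273 and 0.13 by limma). The 3 other Rasgrp1 probesets changed by at most 0.52. Ehd1, which acts in endosome recycling, read 11.12 against 11.70 and 11.69, a difference of -0.58 (adjusted p = 0.0706 by limma), with its other probesets at 2.24, 3.10 and 0.63. Vcam1, an adhesion molecule for leukocyte integrins, was the single one of the 14 called higher: it read 9.10 in the double knockout against 8.43 and 8.28, from 4.59 and 4.45 at 0 h, a difference of 0.74 (adjusted p = 0.0193 by limma). Its level then dropped to 7.92 at 4 h and 5.16 at 8 h. It also dropped in wild type, to 7.18 and 6.28, and in IRAK2 KO, to 7.02 and 5.58. The 2 other Vcam1 probesets changed by 0.36 and 0.29 in the double knockout at 2 h.

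A second kind of gene rose clearly but stopped short. Cxcl2, a neutrophil-attracting chemokine whose promoter is shown above, stood at 5.02 and 5.04 at 0 h, at 11.50 and 11.51 at 2 h and at 10.12 in the double knockout. The rise was 34.0-fold where wild type had 89.2-fold and IRAK2 KO 88.5-fold, a difference of -1.38 ± 0.27 (SE; adjusted p = 0.00666 by limma). Tnf, the central inflammatory cytokine, went from 5.46 to 10.99 and from 5.48 to 11.02 and read 9.53, a 16.7-fold rise that fell short by 1.48 (difference -1.48, adjusted p = 0.0155 by limma). Gpr84, a receptor for medium-chain fatty acids, went from 4.80 to 9.81 and from 4.40 to 9.76 and read 8.61 (difference -1.18, adjusted p = 0.00432 by limma). For all of these the stimulated controls lay close together, and the double knockout lay below both.

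Cxcl3, a neighbour of Cxcl2 in function, had the widest gap of the 14: 3.02 to 10.14 in wild type, 3.14 to 9.98 in IRAK2 KO and 6.99 in the double knockout, 15-fold against 140-fold and 115-fold (difference -3.08 ± 0.34, SE; adjusted p = 0.000695 by limma). Both 0 h values are below the floor, so these folds are lower limits. Tnfsf9, the ligand of the T-cell costimulator 4-1BB, read 8.10 against 9.31 and 8.87 from 3.71 and 3.92, a difference of -0.99 that was not called (adjusted p = 0.059 by limma; interval -1.78 to -0.19 before adjustment). Of the 14, limma did not call 9, called 4 lower and called 1 higher. The 14 were chosen for a large double-knockout change, and the same 2 h value enters the difference from the 2 h mean. These differences and their p-values therefore describe the 14 and are no independent test.

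**Figure D2:**
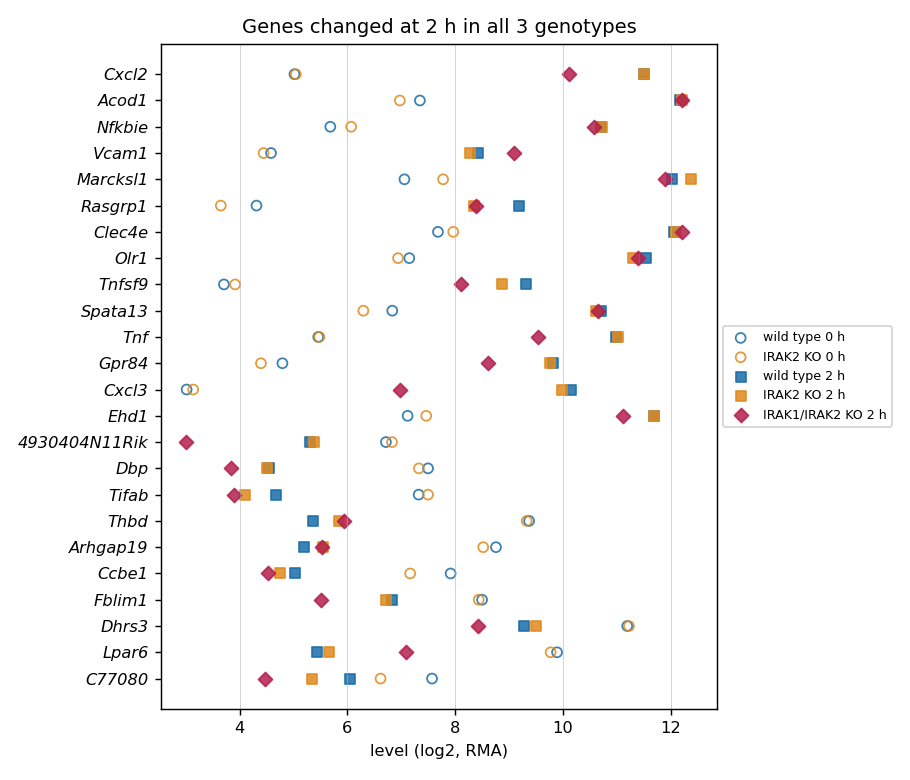
Log2 level of the 14 named genes up in all 3 genotypes and the 10 down in all 3, 1 array per point: open circles are 0 h, filled squares 2 h in wild type and IRAK2 KO, and diamonds the double knockout at 2 h. For Acod1, Clec4e, Olr1 and Spata13 the diamond lies on the squares, while for Cxcl2, Tnf, Gpr84 and Cxcl3 it lies between circles and squares.

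The later time courses differed within both kinds. In the double knockout Cxcl2 read 10.12, 8.28 and 6.08 at 2, 4 and 8 h, Tnf 9.53, 8.32 and 6.40, and Cxcl3 6.99, 5.29 and 3.50, each lower at every later time. Nfkbie read 10.58, 9.74 and 8.58. Acod1 and Clec4e changed by less than 0.5 log2 from 2 to 8 h. Marcksl1, not called different at 2 h, went from 11.89 to 8.91 at 8 h, where wild type and IRAK2 KO read 11.44 and 11.45. Rasgrp1, also not called, went from 8.39 to 6.81, where they read 10.19 and 8.99. Gpr84, which stopped short at 2 h, read 8.61, 8.34 and 7.62. At 8 h Cxcl2, Tnf and Cxcl3 read 11.87, 11.35 and 10.83 in wild type and 10.94, 10.08 and 9.61 in IRAK2 KO.

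**Figure D3:**
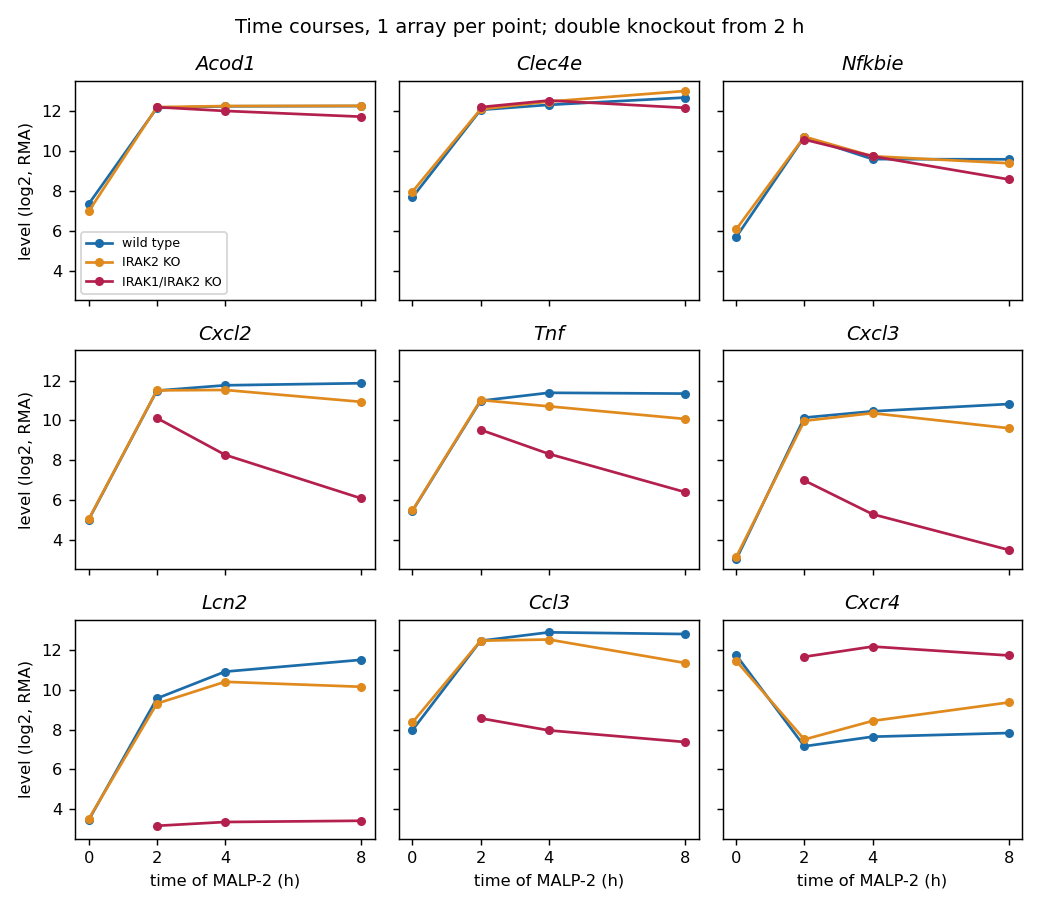
Log2 level of 9 genes against hours of MALP-2, 1 array per point, with the double knockout drawn from 2 h. Acod1, Clec4e and Nfkbie start from the wild-type level at 2 h; Cxcl2, Tnf and Cxcl3 start below it and drop toward the 0 h level; Lcn2 and Ccl3 stay low, and Cxcr4 stays high.

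Genes at least 2-fold down in all 3 genotypes numbered 198, with median changes of -1.72 in wild type, -1.54 in IRAK2 KO and -1.36 in the double knockout. Of 197 tested, limma called 52 higher (a smaller fall) and 21 lower than the 2 h mean and did not call 124. At 8 h, 130 were still 2-fold down in wild type, 85 in IRAK2 KO and 45 in the double knockout. Thbd, the anticoagulant receptor thrombomodulin, stood at 9.37 and 9.33 at 0 h, at 5.37 and 5.84 at 2 h and at 5.93 in the double knockout, a 10.7-fold fall, with a difference of 0.33 from the 2 h mean (adjusted p = 0.179 by limma). Arhgap19, a GTPase-activating protein, went from 8.76 to 5.20 and from 8.52 to 5.55 and read 5.52, but its second probeset changed by -0.12. Dbp, a clock-controlled transcription factor, went from 7.50 to 4.54 and from 7.33 to 4.52 and read 3.84, a difference of -0.69 (adjusted p = 0.0404 by limma). In these genes the double knockout lay with the stimulated controls or below them. Set against the double knockout's own 0 h array, the one that stands apart, Thbd and Arhgap19 would read 0.75 and 0.91 higher at 2 h in place of lower.

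Lpar6, a receptor for lysophosphatidic acid, fell only part of the way: it stood at 9.89 and 9.77 at 0 h, at 5.44 and 5.67 at 2 h and at 7.10 in the double knockout, a difference of 1.54 (adjusted p = 0.0032 by limma). Fblim1, a filamin-binding adaptor, and Dhrs3, a retinal reductase, went further down in the double knockout, to 5.51 against 6.83 and 6.73, and to 8.42 against 9.28 and 9.51. Of the other 4 among the 10 largest falls, 4930404N11Rik and C77080 were called lower than the 2 h mean (differences -2.33 and -1.22), and the other 4930404N11Rik probesets changed by 0.01 and 0.00. Tifab, an inhibitor of TIFA-TRAF6 signalling, and Ccbe1, a secreted lymphangiogenic factor, read 3.90 and 4.53 and were not called (adjusted p = 0.158 and 0.257 by limma). The 10 falls were also chosen for their double-knockout change, so their differences from the 2 h mean are a description too.

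Another group did not show the change of the controls. Of 483 genes that rose in both wild type and IRAK2 KO, 100 stayed within 0.5 log2 of the baseline in the double knockout, as did 155 of the 544 that fell. The share of all measured genes within 0.5 log2 is not given here, so these counts cannot be read as many or few. Lcn2, the siderophore-binding lipocalin, stood at 3.46 and 3.52 at 0 h, at 9.57 and 9.31 at 2 h, and at 3.17, 3.36 and 3.42 in the double knockout at 2, 4 and 8 h. The double knockout was thus under the floor at every time (difference -6.27 ± 0.34, SE; adjusted p = 5.62e-05 by limma).

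The chemokines Ccl3 and Ccl4 showed the same pattern at higher levels. Ccl3 went from 7.98 to 12.46 in wild type and from 8.37 to 12.47 in IRAK2 KO, and read 8.57, 7.96 and 7.38 in the double knockout (difference -3.90, adjusted p = 0.000751 by limma). The double knockout's own 0 h array, the one that stands apart, read 3.80 for Ccl3, and against it the change at 2 h is 4.77, about that of wild type (4.49). Ccl4 went from 4.66 to 9.10 and from 5.16 to 9.01, and read 5.20 in the double knockout, 0.18 from its own 0 h array. Lif, an interleukin-6 family cytokine, read 3.78 in the double knockout against 7.25 and 6.68. Rab11fip1, a recycling-endosome adaptor, read 5.43 against 9.72 and 9.47. Tpbg, Rnd1, Ppfia3, Gpr18 and the vasodilator peptide gene Adm completed the 10, with differences from the 2 h mean between -3.66 for Rnd1 and -2.23 for Adm. These 10 were chosen for their small double-knockout change, so the differences describe them and are no test. Against the own 0 h array Adm changed by 1.12 and Tpbg by -1.28.

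Among falls that were lost, Cxcr4, the receptor for the stromal chemokine CXCL12, stood at 11.74 and 11.45 at 0 h and at 7.17 and 7.51 at 2 h, and at 11.66, 12.17 and 11.73 in the double knockout at 2, 4 and 8 h. The double knockout thus lay with the unstimulated controls, 4.32 above the 2 h mean. Cd300lb, an activating receptor of myeloid cells, read 10.09 against 6.97 and 8.22, and Sesn1, a stress-response gene of the p53 and FoxO programmes, 8.73 against 6.63 and 7.32. The 4 Sesn1 probesets changed by -0.50, -1.0, -1.02 and -0.49, so that 2 of them were past 2-fold down. Tent5c, Mtus1 and Ypel2 lay 2.42, 2.08 and 2.04 above the 2 h mean. Against the own 0 h array Tent5c, Mtus1, Cd300lb and Sesn1 changed by 2.04, 1.66, -1.04 and -1.94.

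**Figure D4:**
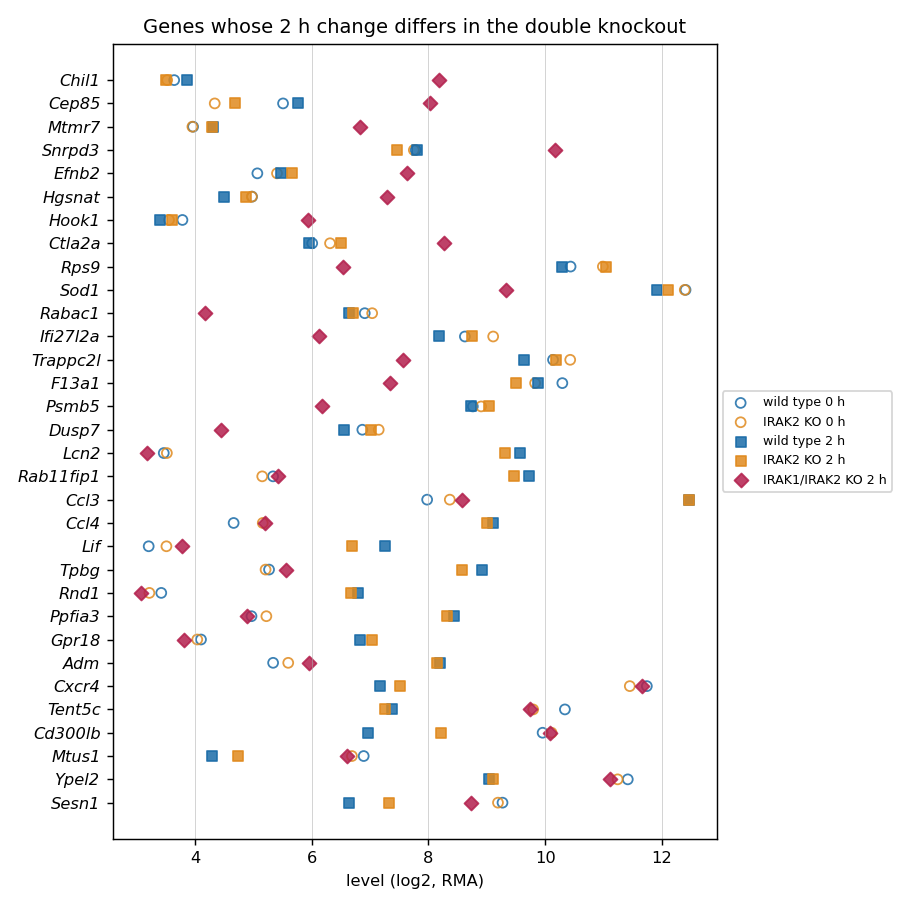
Log2 level, 1 array per point, of the named genes that changed only in the double knockout (from Chil1 to Dusp7), whose rise was lost (Lcn2 to Adm) or whose fall was lost (Cxcr4 to Sesn1). Symbols are open circles for 0 h, squares for 2 h in the controls and diamonds for the double knockout at 2 h; in the last 2 groups the diamonds lie with the circles.

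Counted next were genes at least 2-fold from baseline in the double knockout that limma also called, the same way, against the baseline and the 2 h mean. Where wild type and IRAK2 KO also each stayed within 0.5 log2, these numbered 88 up and 249 down. Over all measured genes, 4.22% were at least 2-fold up and 5.99% at least 2-fold down in the double knockout. Of the 88, 64 were also 2-fold up at 4 h, 45 at 8 h and 41 at both. Of the 249, 195 were also down at 4 h, 109 at 8 h and 104 at both. The 4 and 8 h changes use the same 2 baseline arrays, so these counts are not independent of the choice at 2 h. Shares over all measured genes at 4 and 8 h are not given here, so the counts are a description only. For this group an effect of MALP-2 and a difference present before it cannot be told apart. Chil1, a chitinase-like lectin, led the rises: it read 3.64, 3.87, 3.52 and 3.50 in the controls at 0 and 2 h and 8.18, 7.89 and 7.70 in the double knockout at 2, 4 and 8 h, a level that was nearly constant in time. Efnb2, a membrane ligand of Eph receptors, read 7.63 against 5.07 and 5.40, with its 4 probesets at 2.40, 2.58, 0.13 and -0.11. The other named rises were Cep85, Mtmr7, Snrpd3, Hgsnat, Hook1 and Ctla2a, by 3.10, 2.86, 2.40, 2.31, 2.27 and 2.11. The second probesets of Cep85, Mtmr7 and Hook1 changed by 0.55, 1.16 and -0.09, and the other Snrpd3 probesets by -0.00 and -0.13.

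The falls seen only in the double knockout included housekeeping genes. Sod1, the cytosolic superoxide dismutase, read 12.41 and 12.39 at 0 h, 11.92 and 12.10 at 2 h and 9.33 in the double knockout, but its 5 probesets changed by -3.07, -1.64, -0.68, -0.20 and -0.01. Rps9, a protein of the small ribosomal subunit, read 6.53 against 10.44 and 10.99 at 0 h, with probesets at -4.18, -3.97 and 0.81. Psmb5, a catalytic proteasome subunit, read 6.18 against 8.76 and 8.90. F13a1, the clotting factor XIII subunit made by macrophages, read 7.35 against 10.29 and 9.83, and Rabac1, Ifi27l2a, Trappc2l and Dusp7 changed by -2.79, -2.74, -2.73 and -2.57, with the other Dusp7 probesets at -2.78 and 0.02. On this array the 5' signal of the actin and Gapdh controls was also lower, as given above; its part in these falls was not tested. Against the double knockout's own 0 h array the changes of Sod1, Rps9 and Psmb5 turn to 1.86, 0.30 and 1.85, and those of Efnb2, Snrpd3, Hook1 and Ctla2a to -0.40, -1.70, -2.21 and -1.07.

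Gene families were then described by counts, each to be read beside the all-gene medians given above and the shares over all genes. Those shares are 4.22% up and 5.99% down at 2-fold in the double knockout, 14.8% higher and 22.6% lower than baseline by limma, and 18.8% higher and 15.8% lower than the 2 h mean. The NF-kB family and its feedback inhibitors were mostly up in the double knockout. Of 19 measured members, 13 were at least 2-fold up in the double knockout and 0 down, against 16 up in wild type; limma called 17 up, and the median change was 1.80 in the double knockout, 2.75 in wild type and 2.50 in IRAK2 KO. Nfkbia, which encodes IkB-alpha, read 12.50 against 12.74 and 12.69 in the stimulated controls, from 10.81 and 10.59. Tank and Birc3, which act in TRAF complexes, changed by 2.13 and 2.26. Relb and Bcl3, an NF-kB subunit and a nuclear IkB protein, changed by 2.21 and 2.54. None of these 4 was called different from the 2 h mean. Tnfaip3, the ubiquitin-editing enzyme A20, read 9.25 against 10.12 and 9.83 (adjusted p = 0.061 by limma).

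Other members of this family stood below the stimulated controls. Nfkbiz, the nuclear inhibitor IkB-zeta needed for secondary genes, read 9.99 against 11.85 and 11.69 from 7.38 and 7.22. Nfkb2 and Rel, both NF-kB subunits, changed by 1.45 and 0.99 where wild type had 3.75 and 2.89. Zc3h12a, the endoribonuclease Regnase-1, read 5.82 against 8.89 and 8.71, and its change of 0.82 did not pass (adjusted p = 0.088 by limma). Limma called 7 of the 19 lower and 0 higher than the 2 h mean.

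Among 15 measured cytokines, 5 were at least 2-fold up and 0 down in the double knockout, against 13 up in wild type, and the median change was 0.60 against 2.90 in wild type and 2.14 in IRAK2 KO; limma called 10 lower than the 2 h mean. Il1b, the inflammasome-processed cytokine, went from 3.90 to 12.33 in wild type and from 4.16 to 12.22 in IRAK2 KO, and read 6.16, 3.79 and 4.09 in the double knockout at 2, 4 and 8 h. Its change of 2.13 from baseline did not pass (adjusted p = 0.128 by limma), while the difference from the 2 h mean, -6.12, did (adjusted p = 0.00327). Il1a, which acts as an alarmin, read 6.50 against 9.77 and 9.45, and Il12b, a subunit of interleukin 12, read 4.16 against 8.12 and 7.11. For Il6, at 3.93 against 6.36 and 5.79, the difference of -2.15 was not called (adjusted p = 0.23 by limma).

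Among chemokines, 6 of 19 measured were at least 2-fold up and 1 down, against 13 up in wild type, with medians of 0.48, 1.29 and 1.54 in the double knockout, wild type and IRAK2 KO. Besides Cxcl2 and Cxcl3, Cxcl1, a further neutrophil attractant, read 8.63 against 12.36 and 11.87 from 5.21 and 4.71. Ccl5, an attractant of T cells, read 8.49 against 10.22 and 10.32 from 6.05 and 5.74, and was still at 8.70 and 8.20 at 4 and 8 h. Cxcl13, a B-cell attractant, was the member at least 2-fold down: it read 9.47 in the double knockout against 10.29 and 11.10 at 0 h and 11.10 and 12.03 at 2 h. Mean levels of B-cell and neutrophil markers are given above.

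In the TLR2 pathway itself, 3 of 22 measured members were at least 2-fold up and 0 down, against 7 up in wild type, and limma called 12 up and 1 down. Tlr2, the receptor, read 10.86 against 11.40 and 11.17 from 7.89 and 7.50, a rise of 3.16 (adjusted p = 1.16e-05 by limma). Its coreceptor Cd14 read 10.15 against 11.30 and 11.18, and Tlr1 9.99 against 10.30 and 10.46. Irak3, the inhibitory IRAK-M, read 8.89 against 10.20 and 10.07 (difference -1.24, adjusted p = 0.003 by limma), and the adaptor Myd88 7.87 against 8.57 and 8.61.

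Surface receptors and effectors of macrophages were also often up, with 15 of 25 measured at least 2-fold up and 0 down in the double knockout, against 19 up in wild type, and medians of 1.70, 2.29 and 2.23. Cd40, a costimulatory receptor, read 9.29 against 10.54 and 10.38 from 5.71 and 5.37, Icam1, an integrin ligand, 11.17 against 11.78 and 11.73, and Slc7a11, the cystine transporter, 9.10 against 10.38 and 9.99. Ptgs2, the inducible cyclooxygenase, read 6.95 against 10.89 and 10.49 from 5.42 and 4.83, and its change of 1.82 did not pass (adjusted p = 0.099 by limma). Limma called 13 of the 25 lower and 1 higher than the 2 h mean.

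Among immediate-early and AP-1 factors, 4 of 25 measured were at least 2-fold up and 1 down, against 13 up and 3 down in wild type, with medians of 0.22, 1.24 and 1.01. Maff, a small Maf factor, was the largest rise, at 6.42 against 6.80 and 6.80 from 3.89 and 4.23. Nr4a3, an orphan nuclear receptor, read 5.34 against 8.73 and 8.09. The factors Junb, Ier2 and Btg2 rose by 1.46, 1.56 and 1.26 in wild type and changed by -0.24, -0.45 and -0.45 in the double knockout. Jun, Fos and Atf3, which fell by 1.92, 2.19 and 2.01 in wild type, changed by -0.56, -0.27 and -0.65.

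Among MAP kinase phosphatases, SOCS proteins and messenger-decay factors, 6 of 16 were at least 2-fold up and 1 down, against 9 up and 2 down in wild type. Dusp4 and Dusp16, phosphatases of MAP kinases, read 6.41 and 8.17 and were not called different from the 2 h mean (adjusted p = 0.688 and 0.717 by limma). Dusp1, a nuclear phosphatase of the same family, read 11.89 against 11.17 and 11.23, 0.69 above the 2 h mean (adjusted p = 0.0069 by limma), and Socs2, an inhibitor of growth-hormone signalling, lay 0.93 above it. Dusp2 and Dusp5 went the other way, with differences of -1.44 and -1.67, as did Socs3, the inhibitor of interleukin-6 signalling, at 9.13 against 11.12 and 11.01.

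Interferon-stimulated genes had 3 of 20 up and 3 down at 2-fold, against 4 up and 3 down in wild type. The medians were -0.31 in the double knockout, -0.21 in wild type and -0.24 in IRAK2 KO. Irf1, a transcription factor of the interferon response, read 9.69 against 8.97 and 8.95 from 6.70 and 6.90, and Gbp2, a guanylate-binding protein, 9.42 against 8.67 and 8.70, so both stood above the stimulated controls (adjusted p = 0.0109 and 0.00503 by limma). Mx1, an antiviral GTPase, rose by 2.13 and 1.72 in the controls and changed by -0.23 in the double knockout. Irf8, a macrophage lineage factor, read 6.66 against 6.01 and 6.05, from 8.73 and 8.63.

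Stress genes had 7 of 23 up and 0 down at 2-fold, against 6 up in wild type, with medians of 0.52, 0.36 and 0.65. The NRF2-type genes Txnrd1 and Srxn1 rose by 1.80 and 1.53 where wild type changed by 1.59 and 0.97, whereas the heat-shock gene Hspa1b read 8.72 against 10.21 and 10.59. Of 20 FoxO targets and growth-arrest genes, 3 were up and 1 down, against 2 up and 5 down in wild type. Fbxo32, a ubiquitin ligase of that programme, read 7.01 in the double knockout against 3.09 and 3.56, from 8.14 and 7.80, and Trp53inp1, an autophagy and p53 cofactor, 8.46 against 6.38 and 6.64. Of 17 LXR and PPAR targets, 1 was up, near the share over all genes, and 4 down, against 2 up and 6 down in wild type. The cholesterol exporters moved apart in the double knockout as in the controls, with Abca1 at 1.63 and Abcg1 at -1.59, and Apoe, a lipoprotein component, fell by 1.80 where wild type changed by -0.26.

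In the cell cycle list, 1 of 19 measured genes was up and 1 down at 2-fold, as in wild type, which is near the shares over all genes, and limma called 11 higher and 0 lower than the 2 h mean, with medians of 0.39 in the double knockout, -0.56 in wild type and -0.29 in IRAK2 KO. Mki67, a proliferation marker, was the one up, at 8.61 against 8.97 and 8.58 from 6.04 and 5.94, and was not called different from the 2 h mean. Of 18 glycolysis and hypoxia genes, 1 was up and 3 down, against 1 up and 2 down in wild type, with medians of -0.24, -0.21 and -0.15. Pfkp, a phosphofructokinase, changed by 1.21 where the controls changed by 1.26 and 0.98, and Ndrg1, a hypoxia-induced gene, by -1.39. Of 16 alternative-activation and tissue-repair genes, 3 were up and 2 down, against 0 up and 3 down in wild type. Besides Chil1, Ctse, the endosomal protease cathepsin E, read 7.65, 7.18 and 6.25 in the double knockout at 2, 4 and 8 h, against 3.85 and 4.05 at 0 h and 3.79 and 3.44 at 2 h in the controls. Mertk, a receptor for dying cells, changed by -1.20 where wild type had -1.89. Of 10 ribosomal protein genes, 0 were up and 5 down, against 0 and 0 in wild type, with medians of -1.0, -0.18 and -0.12. Mean level over these genes was 10.02 in wild type at 0 h and 8.81, 8.68 and 8.70 in the double knockout at 2, 4 and 8 h, beside the lower 5' control signal of those arrays; the part of that signal was not tested.

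**Figure D5:**
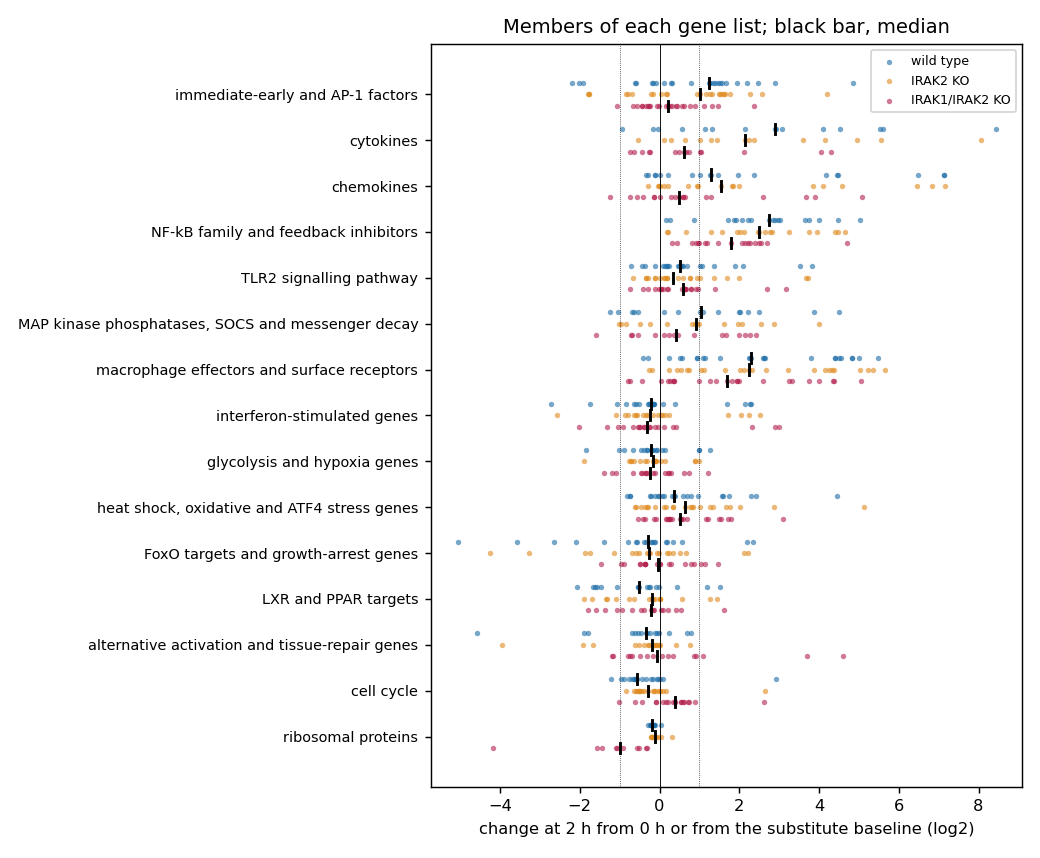
Change at 2 h in log2 units of each measured member of 15 gene lists, by genotype; the black bar is the median and dotted lines mark 2-fold. In the double knockout the NF-kB family and the macrophage effectors have medians of 1.80 and 1.70, cytokines 0.60 and immediate-early factors 0.22, and ribosomal proteins -1.0.

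Promoters were compared by the letters they hold, over both strands and in the 300 bases from 250 before to 50 after each start. GGGNNTTTC was found in 4.36% of 32851 RefSeq promoters and in 4.07% of the 12253 promoters of measured genes. It was found in 32 of 290 promoters (11%) of the genes up in all 3 genotypes, for which 215 of the 260 genes had an entry, and in 5 of 93 (5.38%) of the genes whose rise was lost. Within the first set it was found in 18 of 176 promoters (10.2%) of genes not called different from the 2 h mean and in 13 of 102 (12.7%) of genes called lower. TATAAA was found in 13.8% of promoters of genes up in all 3, in 6.45% where the rise was lost and in 7.67% for measured genes. For the AP-1 letters TGANTCA the shares were 9.31%, 7.53% and 5.29%, and for the CRE letters TGACGTCA 2.41%, 4.30% and 2.93%. Over all RefSeq promoters the shares were 13.6% for TATAAA, 7.81% for TGANTCA and 1.79% for TGACGTCA. The TATAAA share of genes up in all 3 was thus above that of measured genes but near that of all promoters. TGANTCA and TGACGTCA are related, but neither contains the other. Some genes have several promoters, and a match is a description of letters, not of a bound site.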

How the data were processed

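The samples were 12 arrays (Affymetrix, 45101 probesets), 1 per genotype and time, of Trizol-extracted RNA, with biotin-labelled cRNA made by the NuGEN Ovation system, per the labels' protocols. The authors deposited log2 values, 1 per probeset and array, made with RMA per the submitters' processing notes; of RMA the release is not given in the sources used. It equalises the arrays' distributions, so a shift of most transcripts one way would not be seen. All columns of the table matched a sample.

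Of the probesets, 34958 had 1 gene symbol, 932 several and 9211 none, and only the first were used; symbols were updated through the gene table for 34754. Each of 18194 genes was read from the probeset with the highest mean over 11 arrays (9012 genes had more than 1). Tests used limma 3.58.1 in R 4.3.3: genotype and time additive for wild type and IRAK2 KO, a coefficient for each double-knockout array, genes whose mean reached the floor, Benjamini-Hochberg adjustment over 10858 genes, and no separate adjustment within a list. Intervals are 95% and unadjusted. The script was tested on simulated data. Depth has no meaning for arrays; their number, 1 per group, limits precision. Nothing says whether arrays came from separate mice or scan batches.

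Members and gene lists were chosen with earlier results of these data known. Named genes were the 14 largest rises and 10 largest falls shared by all 3 genotypes, the 8 largest rises and 8 largest falls called in the double knockout with both controls within 0.5 log2, the 10 rises and 6 falls lost, and up to 4 members of each list with the largest change, plus members needed to describe a list. Alternatives were the baseline, the fold threshold (1.5 and 3), the floor (60th percentile, 4.23, or none), the probeset rule, centring, and the arrays in the fit.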

Additional observations from a re-analysis of the deposited data

Results flagged for a closer look

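The tests of the difference between the double knockout and the other genotypes in their 2 h change gave 2043 genes higher and 1712 lower in the double knockout (limma, adjusted p of 0.05, 10858 genes tested). At an unadjusted p under 0.05, 4860 genes differed. With the arrays centred on their medians the counts were 1825 higher and 1852 lower, and with the mean of all probesets 1305 higher and 1888 lower, so the direction of the excess depends on these settings.

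A few genes were at least 2-fold up in the double knockout and at least 2-fold down in both controls, or the reverse. Wfs1, an endoplasmic reticulum membrane protein, went from 7.41 to 6.17 in wild type and from 7.57 to 6.42 in IRAK2 KO, and read 8.80, 9.37 and 9.40 in the double knockout at 2, 4 and 8 h, a difference in change of 2.50 (adjusted p = 9.00e-05 by limma). Zranb3, a DNA annealing helicase, went from 8.06 to 6.65 and from 8.11 to 6.59, and read 9.22 in the double knockout, a difference of 2.60. Gbp2b, a guanylate-binding protein, went from 3.81 to 6.57 and from 4.87 to 7.57, and read 3.24, 3.57 and 3.31 in the double knockout, a difference of -3.83 (adjusted p = 4.60e-05 by limma). For Gbp2b the wild-type 0 h value and all these double-knockout values lie under the floor of 3.83. Its double-knockout change of -1.10 thus rests on the IRAK2 KO 0 h value, and shows a rise that was absent more than a fall. Wfs1, Zranb3 and Gbp2b were found by their values, so the p-values describe them and are no independent test.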

How the results depend on the processing

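No paired analysis was possible because each group has 1 array and the labels give no shared replicate numbers; for the same reason no replicate could be left out. The 498 double-knockout rises became 1426 at 1.5-fold, 206 at 3-fold, 294 as the mean of all probesets and 4243 against the double knockout's own 0 h array; the 707 falls became 1898, 192 and, against its own 0 h array, 1561. The 260 genes up in all 3 genotypes became 553 at 1.5-fold, 127 at 3-fold and 173 as the mean of all probesets, and the 198 down in all 3 became 703, 41 and 130, and 83 against the own 0 h array. Genes higher than the 2 h mean by limma went from 2043 to 1305 with the mean of all probesets and to 1825 with centring, and genes lower from 1712 to 1888 and 1852. Of 131 named values, centring the arrays left 131 on their side of 2-fold, the wild-type 0 h baseline alone 124, the IRAK2 KO 0 h baseline alone 123 and the mean of all probesets 113, none changing sign. Without probesets of shared sequence Rps9 turned to 0.81. Against the double knockout's own 0 h array, the array that stands apart, 31 values changed sign: Thbd 0.75, Arhgap19 0.91, Fblim1 0.57, Dhrs3 3.18, Snrpd3 -1.70, Efnb2 -0.40, Hook1 -2.21, Ctla2a -1.07, Rps9 0.30, Sod1 1.86, Rabac1 0.11, Trappc2l 1.37, F13a1 0.19, Psmb5 1.85, Egr3 -1.92, Gbp3 -1.20, Irf8 2.45, Pfkl 1.31, Ccng2 -0.19, Apoe 3.98, Abcg1 3.15, Mertk 1.93, Arg1 1.03, Mki67 -0.19, Mcm6 1.0, Rps19 1.95, Rpl8 3.97, Rps3 3.27, C1qa 0.63, Fcgr1 1.37 and Csf3r 0.49. With that baseline 18 more values crossed 2-fold from inside it, among them Ccl3 (4.77), and 11 no longer reached it. The cause was not tested. Values near the floor of 3.83 limit fold changes to lower bounds.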
